A study of Mus musculus with 96 samples.

Results

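A set of 10 genes of branched-chain amino acid breakdown was followed across gastrocnemius muscle (GASTROC in the labels) and sciatic nerve (SCN). The genes, chosen by symbol, were Bcat2, Bckdha, Bckdhb, Dbt, Bckdk, Ppm1k, Ivd, Acadsb, Mccc1 and Hibch. All 10 were among the 20940 genes of the muscle files and the 22632 genes of the nerve files, and all 10 passed the filter on low values in both tissues.

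Leucine, isoleucine and valine are unusual among the amino acids in that their breakdown begins outside the liver, with skeletal muscle as a major site. A mitochondrial aminotransferase removes the amino group, and the branched-chain ketoacid dehydrogenase complex then commits the carbon skeletons to oxidation. A kinase switches that complex off by phosphorylation and a phosphatase switches it on. Separate enzymes then finish the leucine, isoleucine and valine routes, and adipose tissue also runs the pathway at a high rate.

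Messenger RNA was sequenced in 96 libraries, 49 from muscle and 47 from nerve. The animals were male C57BL/6J mice, genotype C57BL/6 in the labels, housed singly, assigned to a regimen at 12 weeks of age and killed at 26 weeks. KDI_EX mice (6 muscle and 7 nerve libraries) ate a diet with 60% of its energy as fat, then from 18 weeks a ketogenic diet with 90% fat together with a running wheel. KDI mice (7 and 7) made the same change of diet at 18 weeks without a wheel. EX mice (7 and 7) stayed on the 60% fat diet and had the wheel from 18 weeks. DR mice (7 and 7) ate the 60% fat diet and then, from 18 weeks, the standard diet with 10% fat. KD mice (7 and 7) ate the 90% fat ketogenic diet, based on cocoa butter, throughout. HFD mice (7 and 6) ate the lard-based 60% fat diet throughout. SD mice (8 and 6) ate the 10% fat standard diet throughout.

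The values are deposited log2 expression values, higher for more messenger RNA, whose transform is not given in the sources used here. No counts came with them, so the sequencing depth behind each value is unknown, and levels are compared within a gene and not between genes. Library medians lay between 6.89 and 7.17 in muscle and between 7.46 and 7.66 in nerve. Defining markers fitted the labels. Muscle libraries had Ckm at 18.4 to 19.3 and Myh4 at 19.3 to 20.8, and nerve libraries had Mbp at 18.0 to 18.9. Ckm ranged from 6.94 to 13.7 in nerve, so muscle messenger RNA was present there in unequal amounts. No muscle library stood apart from the rest on the leading principal components, and in nerve EX replicate 5 and KDI_EX replicate 7 did. The labels do not name the mouse behind a library, so p-values measure the spread between libraries, and nerve and muscle may come from the same animals.

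The promoters of 4 genes that fell in muscle on the ketogenic diet are shown first, with that of Bckdk, whose level there was nearly the same in every regimen. Each is 250 bases before to 50 bases after a start site in RefSeq (GRCm38.p6), written 5′ to 3′ on the strand of the gene. Capitals mark matches on either strand to the CACCC box, to the CCAAT box, to the GC box, whose letters are GGGCGG, and to the nuclear receptor element, whose letters are AGGTCA. The windows are Bcat2 at chr7:45569903-45570202, Bckdhb at chr9:83924887-83925186, Ivd at chr2:118861744-118862043, Acadsb at chr7:131410351-131410650 and Bckdk at chr7:127903823-127904122, each on the plus strand.
Bcat2: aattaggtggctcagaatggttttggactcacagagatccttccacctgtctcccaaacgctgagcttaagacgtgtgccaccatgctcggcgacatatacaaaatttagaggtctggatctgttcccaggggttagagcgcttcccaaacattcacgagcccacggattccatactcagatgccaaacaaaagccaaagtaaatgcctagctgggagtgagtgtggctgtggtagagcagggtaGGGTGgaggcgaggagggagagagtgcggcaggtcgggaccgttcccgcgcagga
Bckdhb: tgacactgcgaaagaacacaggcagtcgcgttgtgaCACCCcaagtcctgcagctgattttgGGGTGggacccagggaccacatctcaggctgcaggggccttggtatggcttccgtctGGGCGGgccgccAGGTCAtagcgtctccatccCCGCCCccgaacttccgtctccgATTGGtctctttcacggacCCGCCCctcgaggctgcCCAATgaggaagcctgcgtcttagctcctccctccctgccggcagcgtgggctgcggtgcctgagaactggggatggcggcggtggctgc
Ivd: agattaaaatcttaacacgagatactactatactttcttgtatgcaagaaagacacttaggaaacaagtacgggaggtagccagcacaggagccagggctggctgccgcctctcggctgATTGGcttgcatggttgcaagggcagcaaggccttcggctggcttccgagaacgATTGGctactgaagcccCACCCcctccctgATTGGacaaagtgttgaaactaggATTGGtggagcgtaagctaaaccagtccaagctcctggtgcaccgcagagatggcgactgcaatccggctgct
Acadsb: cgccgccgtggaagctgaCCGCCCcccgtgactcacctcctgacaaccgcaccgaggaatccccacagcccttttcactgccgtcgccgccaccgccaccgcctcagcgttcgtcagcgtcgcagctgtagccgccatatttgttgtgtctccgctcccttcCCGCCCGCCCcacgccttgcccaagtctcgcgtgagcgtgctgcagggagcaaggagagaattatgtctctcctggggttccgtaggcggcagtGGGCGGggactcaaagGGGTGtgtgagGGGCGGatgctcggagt
Bckdk: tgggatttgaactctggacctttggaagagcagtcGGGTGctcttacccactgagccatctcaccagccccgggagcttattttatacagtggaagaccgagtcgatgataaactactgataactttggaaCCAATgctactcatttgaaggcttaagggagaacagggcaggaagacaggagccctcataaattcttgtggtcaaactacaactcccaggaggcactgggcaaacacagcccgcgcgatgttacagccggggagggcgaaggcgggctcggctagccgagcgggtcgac

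Each of the 5 windows held at least 1 CACCC match, and the other boxes varied. Bcat2 held 1 CACCC match and none of the other boxes, Ivd held 4 CCAAT matches and 1 CACCC match, and Acadsb held 5 GC boxes and 1 CACCC match. Bckdhb held 3 GC boxes, 1 receptor element, 2 matches to the CCAAT box and 2 to the CACCC box. Bckdk held 1 CACCC box and 1 match to the CCAAT box. Windows were found for 9 of the 10 genes. CACCC stood in 6 of the 9, against 57.5% of all 32851 mouse windows in the table, and CCAAT in 5 of the 9, against 37.4%. The GC box stood in 5 of the 9, against 35.7%, and the receptor element in 2 of the 9, against 16.3%. A longer form of that element, TCAAGGTCA, which contains it, stood in 0 of the 9, against 0.423%. A match is a run of letters and not a measured binding site.

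In muscle on the ketogenic diet throughout, 5 of the 10 genes were lower than on the standard diet: Bcat2, Bckdhb, Dbt, Ivd and Acadsb. They cover the shared opening steps of the pathway and the dehydrogenase step of the leucine and isoleucine routes. The falls were of 0.34 to 0.51 on the log2 scale, or changes of -29.8% to -21.1%, with limma's adjusted p between 0.00041 and 0.00982. Limma called 31 of 15748 genes in this comparison, or 0.197%, at an adjusted p under 0.05, with 20 lower and 11 higher. The change was negative for 9 of the 10 genes with a median of -0.34, against 52.1% of all tested genes and a median of -0.01. For 6 of the 10 the KD and SD libraries did not overlap, against 64 of 15748 genes, or 0.406%. In whole tissue, fewer cells of a type and less messenger RNA per cell cannot be told apart.

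**Figure D1:**
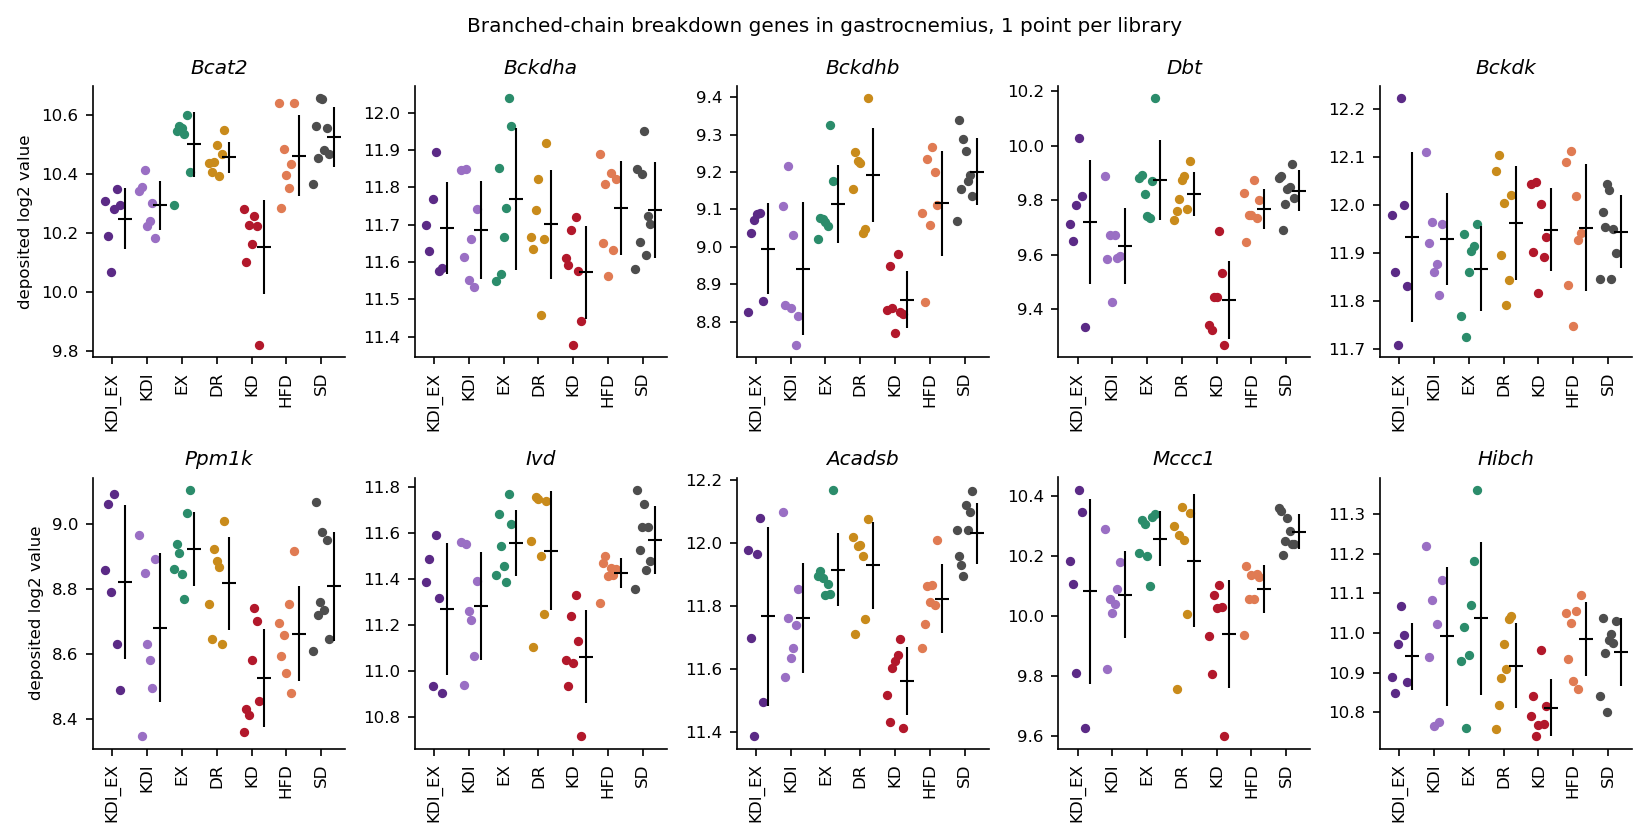
Deposited log2 values of the 10 genes in gastrocnemius, 1 point per library, by regimen with SD at the right; the black bar is the mean and SD of the group. The KD libraries are the lowest group by mean for 9 of the 10 genes, and Bckdk is the exception.

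Bcat2 encodes the mitochondrial branched-chain aminotransferase (chr7:45570153-45589711, plus strand, 11 exons in its principal transcript). Its lowest, median and highest values were 9.82, 10.22 and 10.28 in KD muscle, against 10.36, 10.52 and 10.65 in SD muscle. Every KD library lay below every SD library. The change was -0.37 ± 0.06 (SE, n = 7 and 8; limma adjusted p = 0.00041), and Bcat2 ranked 4 among all tested genes by p. The other groups had 10.07, 10.29 and 10.35 in KDI_EX, 10.18, 10.30 and 10.41 in KDI, 10.29, 10.55 and 10.60 in EX, 10.39, 10.44 and 10.55 in DR, and 10.28, 10.43 and 10.64 in HFD muscle. The 3 groups that ended on the ketogenic diet had the lowest medians, and the medians of EX, DR, HFD and SD lay close together above them. Of the exonic bases of Bcat2, 15.9% are shared with 0610005C13Rik, whose own value did not exceed 3.5 in any muscle library.

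Bckdha and Bckdhb encode the alpha and beta subunits of the decarboxylase that opens the ketoacid dehydrogenase reaction. Bckdhb (chr9:83925145-84124240, plus strand, 11 exons) had 8.77, 8.83 and 8.98 as its lowest, median and highest values in KD muscle, against 9.07, 9.18 and 9.34 in SD muscle. The groups did not overlap, and the change was -0.34 ± 0.06 (limma adjusted p = 0.00551). The other groups had 8.83, 9.05 and 9.09 in KDI_EX, 8.74, 8.84 and 9.22 in KDI, 9.02, 9.07 and 9.33 in EX, 9.04, 9.22 and 9.40 in DR, and 8.85, 9.11 and 9.27 in HFD muscle. KDI held the lowest library of all, with a median next to that of KD, and DR and SD had the highest medians. Bckdha (chr7:25629946-25658981, minus strand) averaged 11.57 ± 0.12 in KD muscle and 11.74 ± 0.13 in SD muscle (SD, n = 7 and 8). Its change of -0.17 ± 0.07 did not pass (limma adjusted p = 0.454), and the groups overlapped. It shares 61.7% of its exonic bases with B3gnt8 on the opposite strand, and the library kit is not stated to mark the strand, so its value can hold reads of both genes. The value of B3gnt8 itself did not exceed 6.75 in any muscle library, and its change was 0.19 (limma adjusted p = 0.482).

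Dbt encodes the transacylase core of the complex (chr3:116513070-116549981, plus strand, 11 exons). Its values were 9.27, 9.45 and 9.69 in KD muscle, against 9.69, 9.84 and 9.93 in SD muscle, with the highest KD library just under the lowest SD library. The change was -0.40 ± 0.07 (limma adjusted p = 0.00139). The other groups had 9.34, 9.75 and 10.03 in KDI_EX, 9.43, 9.60 and 9.89 in KDI, 9.73, 9.87 and 10.17 in EX, 9.73, 9.80 and 9.94 in DR, and 9.65, 9.75 and 9.87 in HFD muscle. KD and KDI had the lowest medians, while the KDI_EX libraries were spread from near the bottom to near the top.

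The kinase and the phosphatase set the activity of the complex. Bckdk, the kinase that inactivates the dehydrogenase (chr7:127904082-127910221, plus strand, 12 exons), averaged 11.95 ± 0.09 in KD muscle and 11.94 ± 0.08 in SD muscle (SD, n = 7 and 8). Its change was 0.00 ± 0.06, with a 95% confidence interval of -0.12 to 0.13 (limma adjusted p = 0.986). Its 7 group means in muscle had a range of 0.09 after rounding. Ppm1k, the phosphatase that reactivates the complex (chr6:57506502-57535468, minus strand), averaged 8.53 ± 0.15 in KD muscle and 8.81 ± 0.17 in SD muscle. Its change of -0.28 ± 0.09 did not pass (limma adjusted p = 0.248), and 7 of 7 KD libraries lay below the SD mean. As a description, the log2 level of Bckdk minus that of Ppm1k averaged 3.42 ± 0.20 in KD, 3.29 ± 0.15 in HFD and 3.14 ± 0.14 in SD muscle. It was lowest in EX muscle, at 2.94 ± 0.11.

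Ivd encodes isovaleryl-CoA dehydrogenase of the leucine route (chr2:118861954-118882909, plus strand, 12 exons). It had 10.71, 11.05 and 11.33 in KD muscle, against 11.36, 11.58 and 11.79 in SD muscle, with no overlap. The change of -0.51 ± 0.10 was the largest of the 10 genes (limma adjusted p = 0.00982). Without KD replicate 7 it was -0.45 and no longer passed (limma adjusted p = 0.0602). The other groups had 10.90, 11.35 and 11.59 in KDI_EX, 10.94, 11.26 and 11.56 in KDI, 11.39, 11.54 and 11.77 in EX, 11.10, 11.56 and 11.75 in DR, and 11.30, 11.44 and 11.50 in HFD muscle. The HFD libraries were tightly grouped, and the KDI_EX, KDI and DR libraries were spread widely.

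Acadsb encodes the short/branched-chain acyl-CoA dehydrogenase of the isoleucine route (chr7:131410601-131448944, plus strand, 11 exons). It had 11.41, 11.60 and 11.70 in KD muscle, against 11.90, 12.04 and 12.16 in SD muscle. Every KD library lay below every SD library, and the change was -0.47 ± 0.08 (limma adjusted p = 0.00115). The other groups had 11.39, 11.83 and 12.08 in KDI_EX, 11.58, 11.74 and 12.10 in KDI, 11.84, 11.89 and 12.17 in EX, 11.71, 11.99 and 12.08 in DR, and 11.67, 11.81 and 12.01 in HFD muscle. Here HFD lay between KD and SD, with a change of -0.21 ± 0.08 against SD that did not pass (limma adjusted p = 0.417).

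Mccc1 encodes the biotin-binding subunit of methylcrotonyl-CoA carboxylase in the leucine route (chr3:35959312-36000678, minus strand). It averaged 9.94 ± 0.18 in KD muscle and 10.28 ± 0.06 in SD muscle (SD, n = 7 and 8). The groups did not overlap, but its change of -0.34 ± 0.09 missed the threshold (limma adjusted p = 0.0819). It passed when only the KD and SD libraries were fitted (limma adjusted p = 0.0247). Hibch, the hydrolase of the valine route (chr1:52844929-52920986, plus strand), averaged 10.81 ± 0.07 in KD muscle and 10.95 ± 0.09 in SD muscle. Its change of -0.14 ± 0.07 did not pass (limma adjusted p = 0.467).

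Against HFD muscle, whose diet was also rich in fat, 10 of 10 changes in KD muscle were negative with a median of -0.22, and 7 had an unadjusted p under 0.05. Among all 15748 genes tested in muscle, 928 had an unadjusted p under 0.05 in this comparison. Limma called 2 of the 10, Bcat2 and Dbt, and 0.318% of all genes. Bcat2 had 9.82, 10.22 and 10.28 in KD muscle, against 10.28, 10.43 and 10.64 in HFD muscle, and changed by -0.31 ± 0.06 (limma adjusted p = 0.00738). Dbt had 9.27, 9.45 and 9.69 in KD muscle, against 9.65, 9.75 and 9.87 in HFD muscle, and changed by -0.33 ± 0.07 (limma adjusted p = 0.0143). The Bcat2 groups met without crossing, and a single KD library of Dbt reached into the HFD range. Bckdhb (-0.26, adjusted p = 0.0773), Ivd (-0.37, adjusted p = 0.160) and Acadsb (-0.26, adjusted p = 0.233) did not pass in limma's test. Both calls were lost when the marker scores described below were added to the fit, while the changes stayed at -0.31 for Bcat2 (adjusted p = 0.0658) and -0.33 for Dbt (adjusted p = 0.144). The Bcat2 call was also lost when only KD and HFD libraries were fitted (-0.31, adjusted p = 0.119). The Dbt call was lost with the adipocyte score alone (-0.33, adjusted p = 0.0678) or without KD replicate 7 (-0.31, adjusted p = 0.0610). HFD against SD muscle called 0 of the 10 and 0.0191% of all genes by limma, with a median change of -0.08 and 2 unadjusted p under 0.05. Of all 15748 genes, 1367 had an unadjusted p under 0.05 there.

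**Figure D2:**
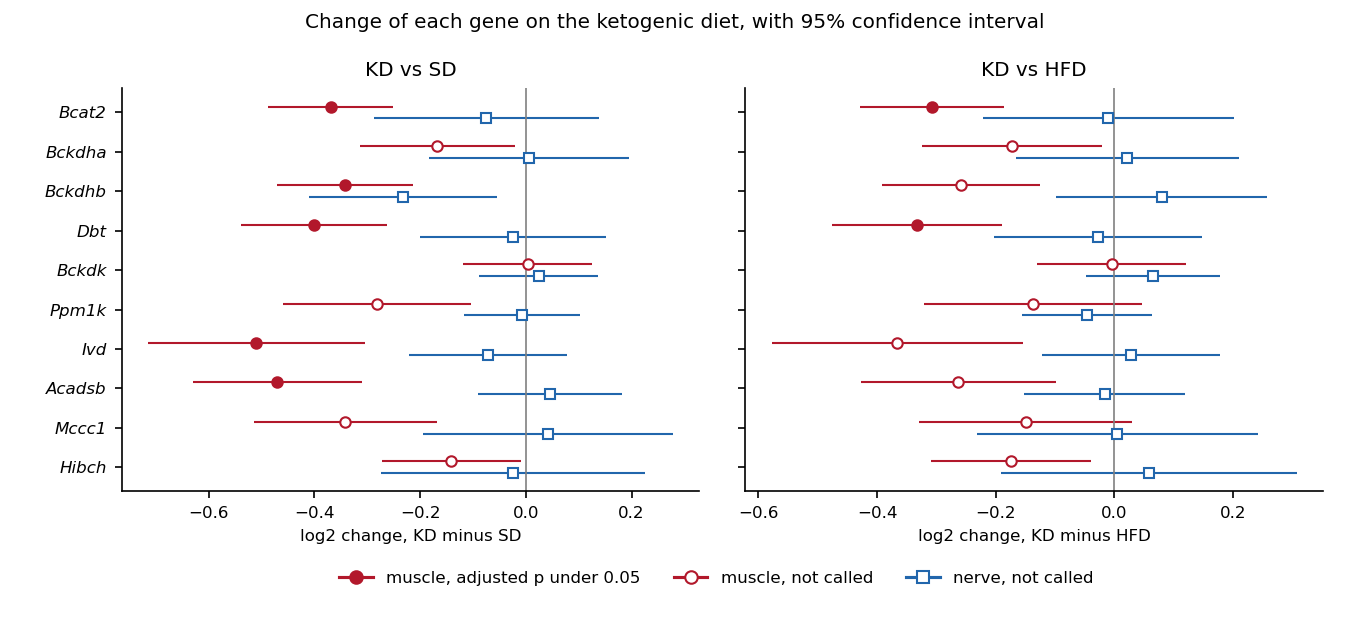
Log2 change of each gene in KD against SD (left) and KD against HFD (right) with its 95% confidence interval, muscle as circles and nerve as squares; filled symbols passed limma's adjusted p of 0.05. In muscle 5 genes passed against SD and 2 against HFD, and no nerve symbol is filled.

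The change to the ketogenic diet at 18 weeks gave 1 call in muscle. Averaged over mice with and without a wheel, Bcat2 fell by 0.21 ± 0.04 (limma adjusted p = 0.0150), or 13.5%, and 0.235% of all genes were called. With values centred on the median of each library the adjusted p by limma was 0.0587. The other 9 genes did not pass, and 9 of the 10 changes were negative with a median of -0.10. Of the 10 genes, 4 had an unadjusted p under 0.05, against 917 of all 15748 genes. Changes were negative in 47.5% of all genes. Bcat2 averaged 10.25 ± 0.10 in KDI_EX muscle and 10.50 ± 0.11 in EX muscle, and 10.29 ± 0.08 in KDI muscle and 10.46 ± 0.14 in HFD muscle. Neither pair alone passed: the change was -0.25 ± 0.06 between the wheel groups (limma adjusted p = 0.193) and -0.17 ± 0.06 between the others (limma adjusted p = 0.9999).

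The remaining muscle comparisons called 0 of the 10 genes by limma. KDI against HFD called 0.0318% of all genes, and 2 of the 10 had an unadjusted p under 0.05. KDI against DR, which compares the ketogenic with the standard diet after the same fat-rich start, had 9 negative changes with a median of -0.15, and 5 unadjusted p under 0.05 with 0.0508% of all genes called. KDI against KD, the later against the earlier start, had 9 positive changes with a median of 0.15 and 5 unadjusted p under 0.05, with 0% of all genes called. KDI_EX against EX had 9 negative changes with a median of -0.13 and 3 unadjusted p under 0.05, with 0.0635% called. KDI_EX against HFD had 1 unadjusted p under 0.05, with 0.108% called. These comparisons share libraries with each other and with KD against SD or HFD, so their directions are not separate observations.

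The return to the standard diet and the wheel moved none of the 10 genes past the threshold in muscle. DR against HFD called 0.0254% and DR against SD 0% of all genes, with 0 unadjusted p under 0.05 among the 10 in either. EX against HFD called 0% of all genes and KDI_EX against KDI 0%, with 1 and 0 unadjusted p. The wheel averaged over diet called 0%, with 1 unadjusted p, that of Ppm1k at 0.20 ± 0.07. The interaction of diet and wheel called 0%, with 0 unadjusted p. Over all 15748 genes, the count with an unadjusted p under 0.05 was 794 in DR against HFD and 226 in DR against SD. It was 318 in EX against HFD, 744 in KDI_EX against KDI, 613 for the wheel averaged over diet and 522 for the interaction.

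**Figure D3:**
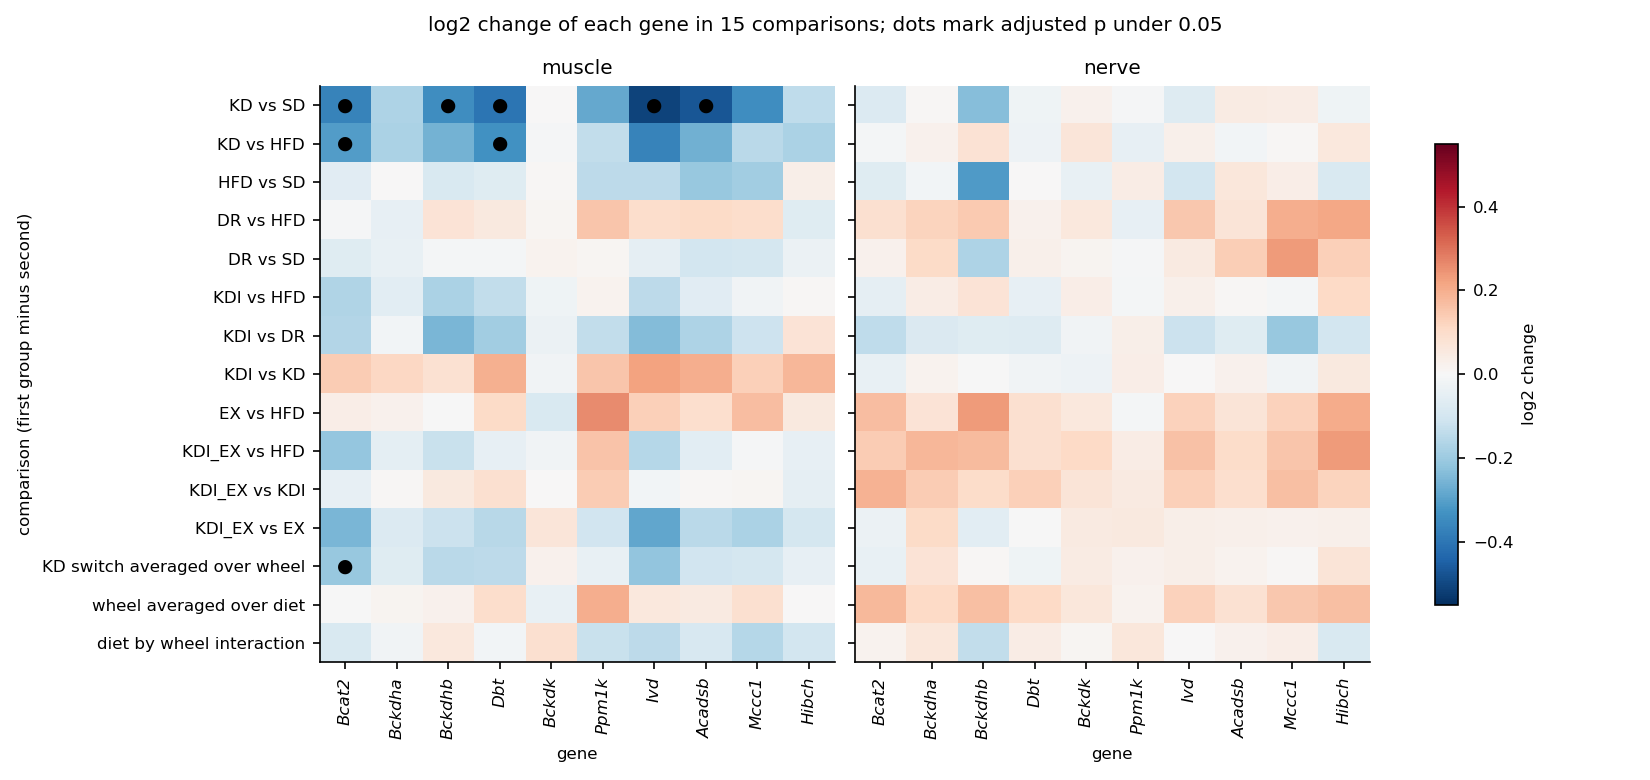
Log2 change of each gene (columns) in the 15 comparisons (rows) in muscle and nerve, blue for lower and red for higher in the first group; dots mark limma's adjusted p under 0.05. The 8 dots all lie in muscle, in rows that set a ketogenic diet against another diet.

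The wider pathway was read in muscle from lists of related genes for KD against SD. In that comparison 9 of the 10 genes and 1611 of all 15748 tested genes had an unadjusted p under 0.05. Of the other branched-chain breakdown enzymes, 17 of 18 listed symbols were in the files. By limma 2 fell and 0 rose, and 7 of the 17 had an unadjusted p under 0.05. Of the 17 changes 12 were negative, and the median change was -0.11. Aldh6a1, the methylmalonate semialdehyde dehydrogenase of valine breakdown, averaged 12.20 in KD muscle and 12.59 in SD muscle and changed by -0.38 ± 0.08 (limma adjusted p = 0.0226). Mccc2, the partner subunit of Mccc1, averaged 9.52 in KD muscle and 9.76 in SD muscle and changed by -0.24 ± 0.06 (limma adjusted p = 0.0475). Both calls depended on single libraries. That of Aldh6a1 was lost without KD replicate 1, 2 or 7 or SD replicate 7 or 8, with limma adjusted p between 0.0575 and 0.0972. That of Mccc2 was lost in 11 of 15 fits that left 1 library out, all but those without KD replicate 1, 2 or 5 or SD replicate 4, with limma adjusted p up to 0.198. Mmut, Pcca and Abat had changes of -0.37, -0.28 and -0.38 that did not pass (limma adjusted p = 0.0962, 0.195 and 0.448).

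Genes of other dehydrogenases, listed with their kinases and phosphatases or their electron acceptors, were read in the same comparison. Of 13 genes of the other 2-oxo acid dehydrogenase complexes, such as pyruvate dehydrogenase, 0 passed in limma's test and 2 had an unadjusted p under 0.05. Their median was -0.14 and 11 of the 13 changes were negative, against 12 of 17 for the other branched-chain breakdown enzymes. Of 12 genes for other acyl-CoA dehydrogenases and their electron acceptors, 1 rose and 0 fell, with 3 negative changes and a median of 0.08. An unadjusted p under 0.05 was found for 4 of the 12. The gene that rose was Acadl, the long-chain fatty acyl-CoA dehydrogenase, at 13.85 in KD muscle and 13.30 in SD muscle, a change of 0.55 ± 0.12 (limma adjusted p = 0.0287). That call was lost without KD replicate 3, 5 or 7 or SD replicate 1, 3, 6, 7 or 8, with limma adjusted p between 0.0638 and 0.0972. It is a relative of Ivd and Acadsb that moved the other way.

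Carriers and regulators did not pass. Of 6 branched-chain amino acid carriers, among them the mitochondrial carrier Slc25a44, 0 were called and 0 had an unadjusted p under 0.05. Their changes were negative in 5 of 6, with a median of -0.10. Of 5 regulators with a known link to the pathway, 0 were called, 4 changes were negative, 1 had an unadjusted p under 0.05 and the median was -0.34. The member with the smallest p was Klf15, a transcription factor known to promote branched-chain amino acid breakdown, at -0.34 ± 0.10 (limma adjusted p = 0.245). In nerve, 0 genes of the 5 lists were called in KD against SD, and 0 had an unadjusted p under 0.05.

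**Figure D4:**
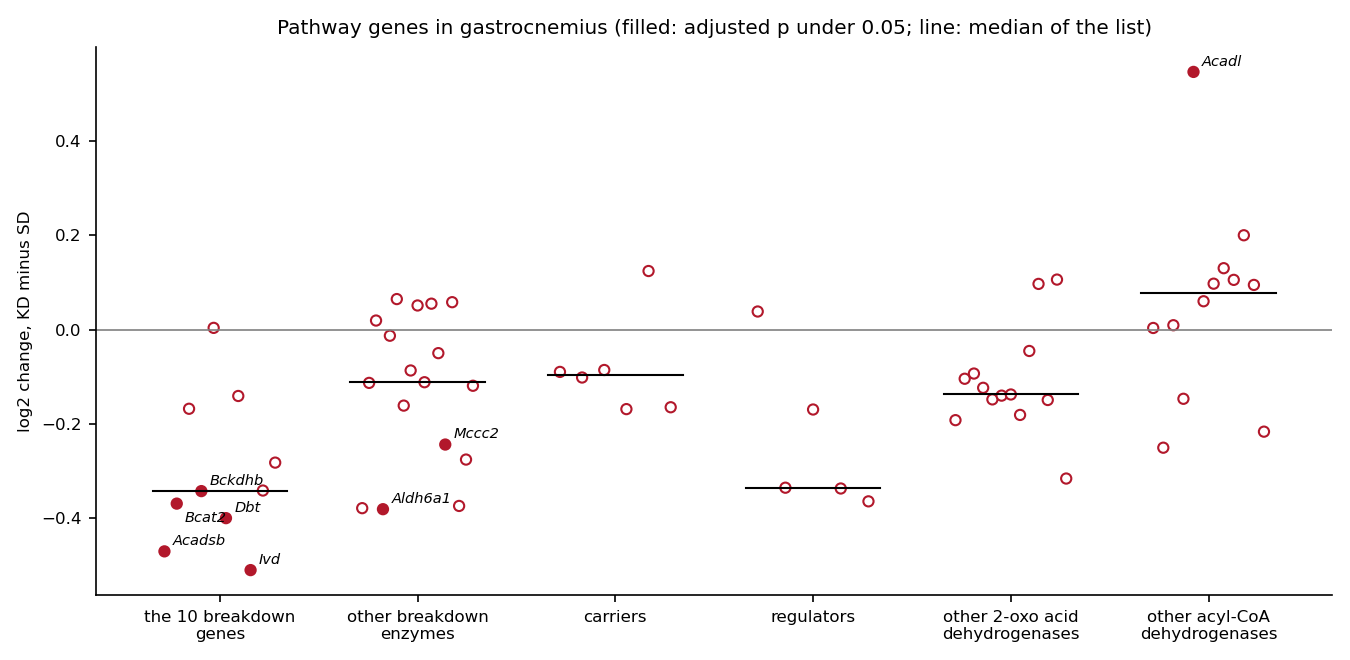
Log2 change in muscle, KD minus SD, of the 10 genes and of the related gene lists, 1 point per gene; filled points passed limma's adjusted p of 0.05 and the line is the median. Of the lists, the other breakdown enzymes hold 2 filled points below 0 and the other acyl-CoA dehydrogenases hold 1 above 0.

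Markers of other cell types were read beside the muscle result. The summed adipocyte score, the mean of 12 markers centred on 0, ranged from -0.68 to 0.13 in KD muscle and from -0.71 to 0.92 in SD muscle, and 0 of the 12 markers were called by limma, with 1 unadjusted p under 0.05. The adipocyte score averaged -0.37 ± 0.28 in KD muscle and 0.35 ± 0.55 in HFD muscle. In that comparison limma called 1 of the 12 markers, which fell, and 6 had an unadjusted p under 0.05. Of the 12 changes 11 were negative, with a median of -0.45. The 12 skeletal myofibre markers had 2 negative changes there, with a median of 0.04, 0 called by limma and 2 unadjusted p under 0.05. In KD against HFD all 10 slow myofibre markers had negative changes, with a median of -0.94, 0 called by limma and 0 unadjusted p under 0.05. All 12 Schwann cell markers had positive changes there, with a median of 0.37, 0 called by limma and 2 unadjusted. The score of 10 slow myofibre markers ranged from -1.87 to 0.31 in KD muscle and from -1.76 to 1.31 in SD muscle, with 0 called by limma and 0 unadjusted p under 0.05. The skeletal myofibre, Schwann cell, macrophage, endothelial and fibroblast lists also had 0 members called by limma in KD against SD and 0 unadjusted p under 0.05. Of the adipocyte markers 10 of 12 had negative changes in KD against SD, with a median of -0.27, and of the slow myofibre markers 9 of 10, with a median of -0.20. All 10 macrophage markers had positive changes, with a median of 0.23, and all 6 fibroblast markers, with a median of 0.36. No defining marker was at 0: Adipoq ranged from 8.71 to 12.5 and Mbp from 9.33 to 11.7 in muscle. With the adipocyte, Schwann cell and slow myofibre scores in the fit, the 5 changes in KD against SD were -0.37 for Bcat2, -0.33 for Bckdhb, -0.40 for Dbt, -0.48 for Ivd and -0.46 for Acadsb, with limma's adjusted p between 0.000276 and 0.00244. Over the 49 muscle libraries, Ppm1k (r = 0.46, rho = 0.47), Bckdha (0.44 and 0.44), Ivd (0.42 and 0.52), Bckdhb (0.41 and 0.41) and Hibch (0.39 and 0.38) rose with the slow myofibre score. Their permutation p, adjusted over 50 relations, lay between 0.000833 and 0.0234. Without the 2 libraries farthest from the median score r was between 0.40 and 0.42 for the 5 genes, and within groups between 0.35 and 0.53. An r at least as high as the weakest of the 5 was found in 7.55% of the tested muscle genes outside the score, the 10 included.

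The 10 genes varied together in muscle. All 45 pairs had a positive Pearson r over the 49 libraries, with a median of 0.58, and all 45 remained positive within groups, with a median of 0.46. Pairs of other genes were not read in either tissue, so these values have no background to be set against. The genes most like each called member are given as a description, by Pearson r and Spearman rho over the 49 libraries, which share their scaling. Acadsb was most like Aldh6a1 (0.92 and 0.93), Mmut (0.91 and 0.92) and Adhfe1 (0.87 and 0.86). Ivd was most like Kyat3 (0.91 and 0.92), Tcaim (0.90 and 0.87) and Oxct1 (0.85 and 0.83). Dbt was most like Oxct1 (0.83 and 0.79), Aldh6a1 (0.82 and 0.79) and Mmut (0.79 and 0.74). Bckdhb was most like Gstk1 (0.84 and 0.82), Oxct1 (0.79 and 0.74) and Gcdh (0.77 and 0.77). Bcat2 was most like Slc2a4 (0.72 and 0.70), Aldh4a1 (0.71 and 0.62) and Foxo6os (0.68 and 0.70). Oxct1, the enzyme that activates ketone bodies for oxidation, thus stood among the 3 nearest genes of Ivd, Dbt and Bckdhb.

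In sciatic nerve, limma called 0 of the 10 genes in each of the 15 comparisons, and also 0 without the 2 nerve libraries that stood apart. KD against SD had a median change of -0.02 with 1 unadjusted p under 0.05 and 0.00581% of all genes called. KD against HFD had a median of 0.01 with 0 unadjusted p and 0.0348% called. Among all 17226 genes tested in nerve, 910 had an unadjusted p under 0.05 in KD against SD and 970 in KD against HFD. Bcat2 averaged 10.31 ± 0.21 in KD nerve and 10.38 ± 0.12 in SD nerve, Dbt 10.23 ± 0.10 and 10.26 ± 0.13, Ivd 11.34 ± 0.16 and 11.42 ± 0.07, and Acadsb 11.89 ± 0.08 and 11.85 ± 0.12, in the same order of groups (SD, n = 7 and 6). The ranges overlapped for each of these 4. Bckdhb had the 1 unadjusted p under 0.05. Its lowest, median and highest values were 9.47, 9.66 and 10.00 in KD nerve, against 9.73, 9.89 and 10.11 in SD nerve, a change of -0.23 ± 0.09 that did not pass (limma adjusted p = 0.822). It was negative as in muscle, with 6 of 7 KD libraries below the SD mean. All 12 skeletal myofibre markers had negative changes in this comparison, with a median of -0.49 and 0 called by limma or at an unadjusted p under 0.05, and their part in the nerve values was not tested. The KD group had the lowest mean for 1 of the 10 genes in nerve, against 9 in muscle.

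The gene with the largest change in nerve was Bckdhb, in HFD against SD. It had 9.43, 9.54 and 9.98 in HFD nerve, against 9.73, 9.89 and 10.11 in SD nerve, with 5 of 6 HFD libraries below every SD library. The change was -0.31 ± 0.09 and did not pass (limma adjusted p = 0.146). Without HFD replicate 5, the library that overlapped, it was -0.39 and passed (limma adjusted p = 0.0133). That library held the highest HFD value, so leaving it out could only enlarge the fall. HFD against SD had 1 unadjusted p under 0.05 among the 10 genes, against 3135 among all 17226 genes. At an adjusted p under 0.05, 0% of all genes were called by limma. The count of all genes called depended on the fit: it was 278 with the marker scores, 295 with the adipocyte score alone and 3787 with library quality weights.

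The diet changes gave no calls in nerve. DR against HFD and DR against SD called 0% and 0% of all genes, with 0 unadjusted p under 0.05 among the 10 in either. Changes were positive for 9 and 8 of the 10 genes, with medians of 0.10 and 0.04. Over all genes, 50.5% and 48.4% of the changes were negative. KDI against HFD called 0.0232%, KDI against DR 0.00581% and KDI against KD 0%, each with 0 unadjusted p. KDI_EX against EX called 0.0581% and the change to the ketogenic diet averaged over wheel 0.372%, each with 0 unadjusted p. Over all 17226 genes, the count with an unadjusted p under 0.05 was 1271 in DR against HFD and 1706 in DR against SD. It was 736 in KDI against HFD, 936 in KDI against DR and 460 in KDI against KD. KDI_EX against EX had 999 and the change averaged over wheel 1303.

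Nerve values were on average higher with the wheel, without a call. Both nerve libraries that stood apart, EX replicate 5 and KDI_EX replicate 7, were wheel libraries and are part of these averages. Their skeletal myofibre scores, 4.33 and 4.31, were the highest of their groups. Averaged over diet, 10 of 10 changes were positive with a median of 0.12, and 3 had an unadjusted p under 0.05. Those 3 were Bckdhb (0.17 ± 0.06), Bcat2 (0.18 ± 0.07) and Ivd (0.13 ± 0.05). Among all 17226 genes, 1895 had an unadjusted p under 0.05 and 48.4% had a negative change. The smallest adjusted p of the 10 by limma was 0.325, and 0% of all genes were called. Positive changes were not particular to the wheel. Without a wheel, DR against HFD had 9 of 10 positive changes with a median of 0.10. Among the wheel comparisons, EX against HFD had 9 of 10 with a median of 0.11, and KDI_EX against KDI 10 of 10 with 0.13. EX against HFD called 0% and KDI_EX against KDI 0% of all genes, with 1 and 0 unadjusted p, and KDI_EX against HFD called 0.0697% with 1 unadjusted p. The interaction called 0%, with 0 unadjusted p. Over all genes, the count with an unadjusted p under 0.05 was 1235 in EX against HFD, 801 in KDI_EX against KDI, 985 in KDI_EX against HFD and 361 for the interaction. The adipocyte score in nerve averaged 0.30 ± 0.31 in EX and -0.13 ± 0.58 in HFD, and 0.02 ± 0.83 in KDI_EX and 0.04 ± 0.46 in KDI. With that score in the fit the wheel changes were still positive in 10 of 10 genes, with a median of 0.07, 0 called by limma and 4 unadjusted p under 0.05. Other marker lists moved with the same contrast, with 0 called by limma in each. All 12 Schwann cell markers had negative changes (median -0.17, 9 unadjusted p under 0.05), as had all 12 skeletal myofibre markers (median -0.49, 0 unadjusted). All 10 macrophage markers had positive changes (median 0.25, 3 unadjusted), as had all 6 fibroblast markers (median 0.17, 4 unadjusted). Their part in the wheel changes was not tested.

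Nerve values of most of the 10 genes rose with the adipocyte score from library to library. Over the 47 nerve libraries, 8 genes rose with the score and 1 fell in both the Pearson and the Spearman permutation test, adjusted over 50 relations. Many other genes did so too. Among the 17214 tested nerve genes outside the score, the 10 included, 12.5% had an r at least as high as the weakest of those 8. An r at least as low as that of the gene that fell was found in 14.2%. Hibch had r = 0.87 and rho = 0.86, with 0.87 when the 2 libraries farthest from the median score were left out and 0.89 within groups. Bcat2 had r = 0.80 and rho = 0.80, with 0.78 without those libraries and 0.82 within groups. For both genes the permutation p was 1e-05, the smallest these permutations can give, and the adjusted p was 7.14e-05 for r and 8.33e-05 for rho. The other 6 that rose, Bckdha, Mccc1, Ivd, Dbt, Acadsb and Bckdk, had r between 0.51 and 0.76, between 0.47 and 0.71 without those libraries and between 0.54 and 0.80 within groups. Ppm1k ran the other way, with r = -0.43 and rho = -0.43 (adjusted permutation p = 0.00827 and 0.0108), -0.54 without those libraries and -0.51 within groups. Bckdhb had r = 0.34, whose adjusted permutation p passed by r (0.0470) and not by rho (0.0643). Without the 2 libraries that stood apart over all genes (n = 45), r was 0.86 for Hibch, 0.78 for Bcat2, between 0.43 and 0.73 for the other 6 and -0.45 for Ppm1k. Adipoq, the adipocyte hormone gene of the score, ranged from 11.9 to 14.7 in nerve.

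In muscle, 0 of the 10 genes rose with the adipocyte score and 1 fell, Bckdk (r = -0.39, rho = -0.38, adjusted permutation p = 0.0169 and 0.0234), with r of -0.40 without the 2 farthest libraries and -0.40 within groups. In 7.99% of the tested muscle genes outside the score, the 10 included, r was at least as low. The Schwann cell score went with 0 of the 10 genes in muscle, with r between -0.28 and -0.03 and no adjusted p under 0.05 in either permutation test. In nerve, the skeletal myofibre score rose with 2 genes, Bckdk (r = 0.61, rho = 0.55) and Bckdha (r = 0.47, rho = 0.39). Their r was 0.51 and 0.34 when the 2 farthest libraries, the same that stood apart, were left out. Within groups it was 0.67 and 0.56. Among the tested nerve genes outside the score, the 10 included, 2.96% had an r at least as high as Bckdha. Of the 45 pairs of genes in nerve, 36 had a positive r, with a median of 0.58, and the lowest was -0.33, for Bcat2 and Ppm1k.

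**Figure D5:**
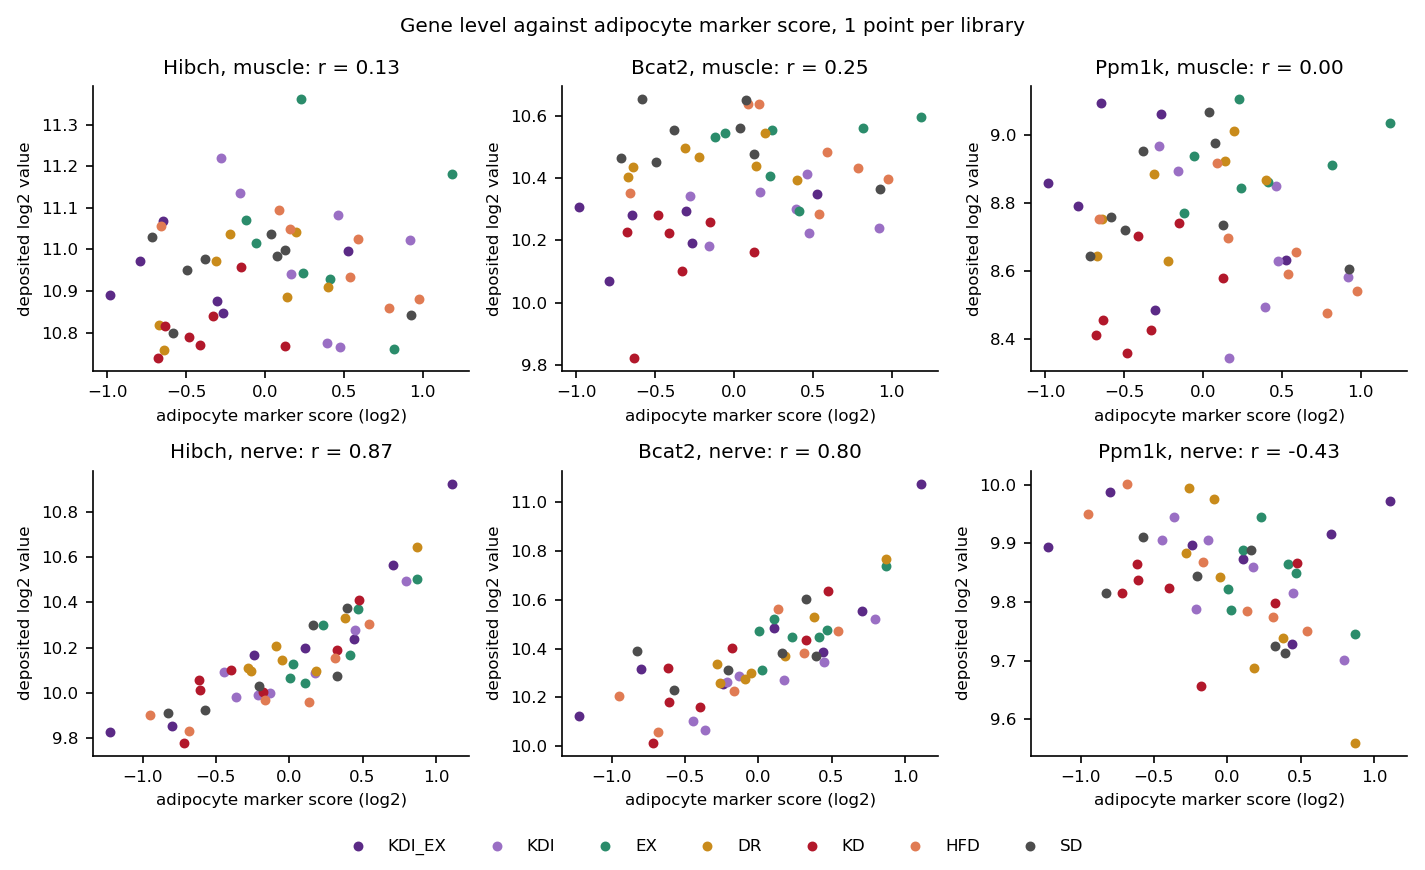
Deposited log2 value of Hibch, Bcat2 and Ppm1k against the adipocyte marker score, 1 point per library coloured by regimen, in muscle (top) and nerve (bottom). In nerve, Hibch and Bcat2 rise with the score across all regimens (r = 0.87 and 0.80) and Ppm1k falls (-0.43), and in muscle r is 0.13 for Hibch, 0.25 for Bcat2 and 0.00 for Ppm1k.

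The difference between the tissues was tested gene by gene as the change in muscle minus that in nerve. The test takes muscle and nerve libraries as independent, and the labels do not show whether they share animals. For KD against SD the difference passed for Acadsb alone of the 10, at -0.52 ± 0.10 (limma estimates, adjusted p = 0.0361), with changes of -0.47 in muscle and 0.05 in nerve. Of 15055 genes tested in both tissues 2 passed, or 0.0133%. Leaving out 1 library in turn kept the difference between -0.56 and -0.49, but it missed the threshold in 17 of 28 such fits, with adjusted p up to 0.160 without KD replicate 7 of muscle. The call held without muscle KD replicate 5 or 6, muscle SD replicate 1, 3 or 4, nerve KD replicate 2, 3, 4 or 7, or nerve SD replicate 2 or 5. Ivd (-0.44), Mccc1 (-0.38), Dbt (-0.38), Bcat2 (-0.29) and Ppm1k (-0.27) had differences that did not pass (adjusted p of 0.301 or more from the limma estimates). Those of Bckdha (-0.17), Hibch (-0.12), Bckdhb (-0.11) and Bckdk (-0.02) did not pass either. Bckdhb, called in muscle at -0.34, was at -0.23 in nerve. For KD against HFD and for HFD against SD, 0 of the 10 genes passed, with 0.00664% and 0.00664% of all genes called. For Bcat2, Bckdhb, Dbt and Ivd, a call in muscle without one in nerve is therefore not a shown difference between the tissues.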

How the data were processed

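Messenger RNA was sequenced in 96 libraries, 49 of muscle and 47 of nerve, and grouped into 7 regimens per tissue by the labels. The deposited files, 1 per library, hold log2 expression values per gene, adjusted by the authors between libraries. The transform is not given in the sources used here, so low values may have been shrunken, and the depth is unknown. Per the submitters' processing notes, which give no roles, the build was GRCm38 and the tools were STAR 2.7.8a and RSEM 1.3.3, with DESeq2, cutadapt 2.3, MultiQC 1.7 and FastQC 0.11.8.

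A gene was tested where 6 or more libraries of a tissue reached the log2 of 10, which left 15748 in muscle and 17226 in nerve. Limma 3.58.1 in R 4.3.3 fitted all 7 regimens of a tissue together, with a trended and robust prior variance, and 15 comparisons were read. P-values are two-sided and adjusted by Benjamini-Hochberg over all genes tested in the tissue and comparison, with a call at an adjusted p under 0.05. The fit was tested on simulated data with known changes. Change in muscle minus change in nerve was tested over 15055 genes with the standard errors of both fits, taken as independent. Marker relations used 100000 permutations. Libraries stood apart when over 4 median absolute deviations from the median on the first or second principal component. Gene positions are from GENCODE vM21 (GRCm38) and promoter windows from RefSeq (GRCm38.p6).

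The 10 genes and all lists were chosen with earlier results of these data known. All 10 are named. Other genes are named where they were called in a list, had the smallest p of a list or were most like a called gene; Mmut, Pcca, Abat and Slc25a44 were named after their values were seen. The alternatives were no filter, fitting only the compared groups, library quality weights, quantile normalisation, marker scores as covariates, leaving out libraries that stand apart, and leaving out each library in turn. Median centring, the adipocyte score alone, and the alternatives for list genes, the tissue difference and the marker relations were added after seeing the data.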

Additional observations from a re-analysis of the deposited data

Results flagged for a closer look

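Of 140 groups of values (10 genes, 7 regimens, 2 tissues), 10 held 1 library far from the others by Dixon's test at 95%, where chance gives about 1 in 20. In muscle, Bcat2 in KD replicate 7 was at 9.82, with the nearest library at 10.10, and Ivd in HFD replicate 1 was at 11.30, with the nearest at 11.41. EX replicate 7 was high in muscle for Dbt, at 10.17 with the nearest at 9.89, and for Acadsb, at 12.17 with the nearest at 11.91.

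In nerve, DR replicate 2 was high for Bckdha at 11.40, for Bckdk at 10.76 and for Hibch at 10.64, with the nearest libraries at 10.95, 10.47 and 10.33. Bckdha in EX replicate 5, a library that also stood apart over all genes, was at 11.22, with the nearest at 10.93. Ppm1k in KD replicate 3 was at 9.66, with the nearest at 9.80, and Acadsb in SD replicate 2 was at 12.08, with the nearest at 11.86.

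The effect of KD against SD on Acadsb differed between the tissues by -0.52, muscle minus nerve, in the test of the difference itself (adjusted p = 0.0361 from the limma estimates). KD replicate 7 of muscle was the library whose omission raised that p most, to 0.160.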

How the results depend on the processing

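Every change named as called kept its direction in all alternatives run. In KD against SD muscle the 5 genes were called under all 7 other settings, at -0.38 to -0.35 for Bcat2, -0.35 to -0.33 for Bckdhb, -0.41 to -0.35 for Dbt, -0.52 to -0.48 for Ivd and -0.48 to -0.44 for Acadsb, with limma adjusted p up to 0.0183. Leaving out 1 library left 4 or 5 called. Over all genes, 31 were called in that comparison, against 105 with only the compared groups, 223 under quality weights per library and 99 with the marker scores. The count of 2 in KD against HFD muscle was 1 with only the compared groups, 5 with quality weights (Ivd, Acadsb and Bckdhb added), 0 with marker scores, 1 with the adipocyte score alone, and 1 to 3 when 1 library was left out. All genes called there numbered 50, against 33, 123, 14 and 21 under those 4 settings. Quality weights also called 4 genes in KDI against DR muscle (Dbt, Ivd, Acadsb and Bckdhb), with 197 of all genes against 8. In nerve they called 1 in HFD against SD and 1 in EX against HFD, both Bckdhb, where 0 were called in each; over all genes they called 3787, or 22%, and 857, or 4.98%, against 0 and 0. In nerve HFD against SD, Bckdhb was also the 1 gene called with the adipocyte score alone, beside 295 of all genes (278 with the marker scores), and 0 to 1 were called when 1 library was left out. Median centring left 0 called for the change to the ketogenic diet averaged over wheel, where Bcat2 was at -0.20 (limma adjusted p = 0.0587). The tissue difference of Acadsb lay between -0.56 and -0.49 when 1 library was left out, and was called under all 8 other settings, between -0.53 and -0.47. The list genes lost their calls with median centring: Aldh6a1 (adjusted p = 0.0568), Acadl (0.0509) and Mccc2 (0.101, and under 3 more settings). The causes of these moves were not tested. Of the remaining values, 722 counts or differences stayed within 1.5 times or kept their call. Most of these were counts of 0 that stayed at 0, in comparisons with few or no calls over all genes. No muscle library stood apart, so that alternative gave no value there. No paired analysis was possible because the replicate numbers were given in accession order and pair no libraries. The depth is unknown, so no limit from depth can be given.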
